A study of Homo sapiens with 12 samples.

Results

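The ribosomal protein paralogs RPL22L1, RPL26L1, RPS27L and RPL39L were followed in T24 cells, an established human bladder cancer line. They are 4 of the 60504 genes listed for each library and were chosen by name, with their TPM in all 12 libraries already known. TPM is a level scaled by transcript length and to one total per library. Because these values were known at the choice, the paralogs are described by level, fold change and standard error (SE) without a test, and tests are given for their parent genes RPL22, RPL26, RPS27 and RPL39 and for other gene lists.

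The study altered U11, a small nuclear RNA of the minor spliceosome. In a first set, 2 libraries labelled U11 knockout (U1 and U2) stood beside 2 untreated T24 controls (T1 and T2). The knockout was made with CRISPR/Cas9 and 2 guides, and the methods describe monoclonal lines chosen for their knockout efficiency. In a second set, 6 libraries labelled U11 overexpression came from 3 line labels (79, 86 and 87, with 2 libraries each) and stood beside 2 untreated T24 controls (T24P3 and T24-4). The overexpression plasmid was pcDNA-U11, kept by stable transfection and followed by selection of clones. The sample titles carry a prefix that is read here as the library batch. It was R18051 in the first set. In the second it was R17018 (79-1, 86-1, 87-1 and T24P3) or R18019 (79-3, 86-3, 87-3 and T24-4). The titles do not say what the prefix or the numbers 79, 86 and 87 stand for, so batches and lines are inferred. Nothing in the labels says that libraries of one group came from separate cultures, so a P value covers the spread between these libraries, which may be technical.

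In the sequencing values, the U11 level went against the knockout label. The paper measured U11 by quantitative PCR and reports it as lower in the knockout line and higher in the overexpression line. Here U11 TPM was summed over its annotated entries, and the reason for the disagreement was not tested. This sum was 21.35 and 23.82 TPM in T1 and T2 and 31.64 and 37.40 TPM in the libraries labelled knockout, U1 and U2. In the second set it was 61.86 and 53.60 TPM in line 87, 3.98 and 3.72 TPM in line 86, 0.18 and 0.41 TPM in line 79, and 0.03 and 0.62 TPM in the controls, so line 79 was not above both controls. The 2 sets also differed in what filled the TPM total: 89 HIST genes summed to 27661.8 to 34278.5 TPM in the first set and 103.4 to 179.8 TPM in the second. TPM levels are therefore set against the controls of the same set, apart from an alternative with all 4 controls. Aligned sequence ran from 9.07 to 15.33 gigabases per library. The epithelial keratins KRT7, KRT8, KRT18 and KRT19 were present in every library (90.28 TPM or more), whereas the uroplakins UPK1A, UPK1B, UPK2 and UPK3A, which define differentiated urothelium, were under 1 TPM in all 12 libraries, as were KRT20 and KRT5. The urothelial regulators GATA3 (2.38 to 17.41 TPM) and PPARG (18.88 to 54.55 TPM) were above 1 TPM in every library.

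A ribosome carries one copy of nearly every ribosomal protein, and in humans a few of these proteins have a second gene whose product can take the same place. RPL22 and its paralog RPL22L1 belong to the large subunit, and RPL22 is known to bind RNA and to act on RPL22L1 transcripts. RPL26L1 differs little from RPL26, also a large-subunit protein. RPS27L pairs with RPS27 of the small subunit. RPL39L is known chiefly from testis, while its parent RPL39 sits at the peptide exit tunnel in most cells.

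In the deposited hg38 annotation, RPL22L1 (ENSG00000163584) covers chr3:170864875-170870483 on the minus strand and RPL39L (ENSG00000163923) covers chr3:187120948-187180908, also on the minus strand. RPL26L1 (ENSG00000037241) covers chr5:172958729-172969771 on the plus strand. RPS27L (ENSG00000185088) covers chr15:63125872-63158021 on the minus strand. All 4 are multi-exon genes: the GENCODE 44 canonical transcripts have 4 exons, or 3 for RPL39L, and no pseudogene entry named after any of the 4 was found in the files.

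How far a paralog can be told from its parent by reads depends on their sequence. RPL39L and RPL39 are the closest of the 4 pairs, and their coding sequences (153 bases each, stop codon left out, from GENCODE 44) are shown with the 8 bases that differ in capitals.
RPL39L: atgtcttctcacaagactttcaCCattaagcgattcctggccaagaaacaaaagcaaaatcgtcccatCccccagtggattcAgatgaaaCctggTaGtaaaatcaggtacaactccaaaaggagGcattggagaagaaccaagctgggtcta
RPL39: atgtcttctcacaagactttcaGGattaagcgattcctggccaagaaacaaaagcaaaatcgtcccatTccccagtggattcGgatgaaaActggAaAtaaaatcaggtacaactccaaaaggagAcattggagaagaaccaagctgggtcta

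The 2 sequences were 94.8% identical and shared an unbroken run of 67 bases. Of the 699 stretches of 31 bases in the RPL39L transcript, 51 (7.3%) were also found in RPL39. No stretch of 150 bases, the length of a read, was shared. RPS27L and RPS27 are shown in the same way because RPS27L had the widest range between lines of the 3 paralogs fitted there, with 56 of 252 bases in capitals.
RPS27L: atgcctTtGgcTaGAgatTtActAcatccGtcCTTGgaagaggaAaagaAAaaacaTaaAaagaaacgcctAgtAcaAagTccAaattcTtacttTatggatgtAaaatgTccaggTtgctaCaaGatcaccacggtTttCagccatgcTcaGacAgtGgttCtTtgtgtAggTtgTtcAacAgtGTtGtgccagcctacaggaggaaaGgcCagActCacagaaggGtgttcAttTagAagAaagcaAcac
RPS27: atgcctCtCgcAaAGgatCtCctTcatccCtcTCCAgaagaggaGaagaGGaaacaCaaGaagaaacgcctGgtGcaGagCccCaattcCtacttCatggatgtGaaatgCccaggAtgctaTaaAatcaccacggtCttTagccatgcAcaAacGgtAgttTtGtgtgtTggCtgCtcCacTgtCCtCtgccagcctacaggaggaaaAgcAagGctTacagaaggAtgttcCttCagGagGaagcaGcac

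Coding identity was 77.8% for RPS27L with RPS27, 84.1% for RPL26L1 with RPL26 and 68.6% for RPL22L1 with RPL22. The longest shared runs in these 3 pairs were 20, 20 and 17 bases, and no stretch of 31 bases was shared between their transcripts.

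Transcripts of ribosomal protein genes usually begin with a C followed by a run of pyrimidines, the terminal oligopyrimidine tract through which their translation is controlled. Windows of 30 bases around the RefSeq starts (GRCh38.p14, 10 bases before and 20 from the start) are shown to compare paralogs with parents, with the tract in capitals where a C at the start was followed by at least 4 further C or T.
RPL22L1: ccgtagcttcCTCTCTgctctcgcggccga
RPL22: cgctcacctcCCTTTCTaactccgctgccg
RPL26L1: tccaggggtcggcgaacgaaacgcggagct
RPL26: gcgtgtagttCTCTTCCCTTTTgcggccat
RPS27L: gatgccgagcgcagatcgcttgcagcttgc
RPS27: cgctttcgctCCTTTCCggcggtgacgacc
RPL39: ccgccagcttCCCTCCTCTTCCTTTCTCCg

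The 4 parents had such a tract of 7 to 19 bases. Among the paralogs, RPL22L1 had a tract of 6 bases, and no tract by this definition was found at the RPS27L start or at either of the 2 RPL26L1 starts. RPL39L is not in the start table used. The tract was found at 4.1% of the 35116 starts in the table and at 60.3% of the 78 starts of cytosolic ribosomal protein genes. Of the 79 such genes listed, 63 were in the table, and 47 of these had the tract at 1 start or more. These windows lie on the strand of each gene: RPL22L1 at chr3:170870176-170870205, RPS27L at chr15:63157458-63157487 and the RPL26L1 window shown at chr5:172958719-172958748.

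On the TPM scale the paralogs were far below their parents in every library. By coverage (mean aligned bases per position) per aligned gigabase, RPL22L1 was nearer to RPL22. It was 9.45 against 15.8 in T2 and 6.02 against 14.4 in T1. In order of level, RPL26L1 was followed by RPL22L1, RPS27L and RPL39L in 11 of 12 libraries. The exception was U1, where RPS27L stood above RPL22L1 in TPM (14.81 against 12.81) but below it in coverage per aligned gigabase (3.80 against 4.16). TPM is scaled by length, so these levels may be set beside each other within a library. The median in the first set was 73.6 TPM for RPL26L1, 15.9 TPM for RPL22L1, 10.19 TPM for RPS27L and 0.86 TPM for RPL39L. In the second set it was 174.7, 40.24, 20.87 and 0.18 TPM.

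**Figure D1:**
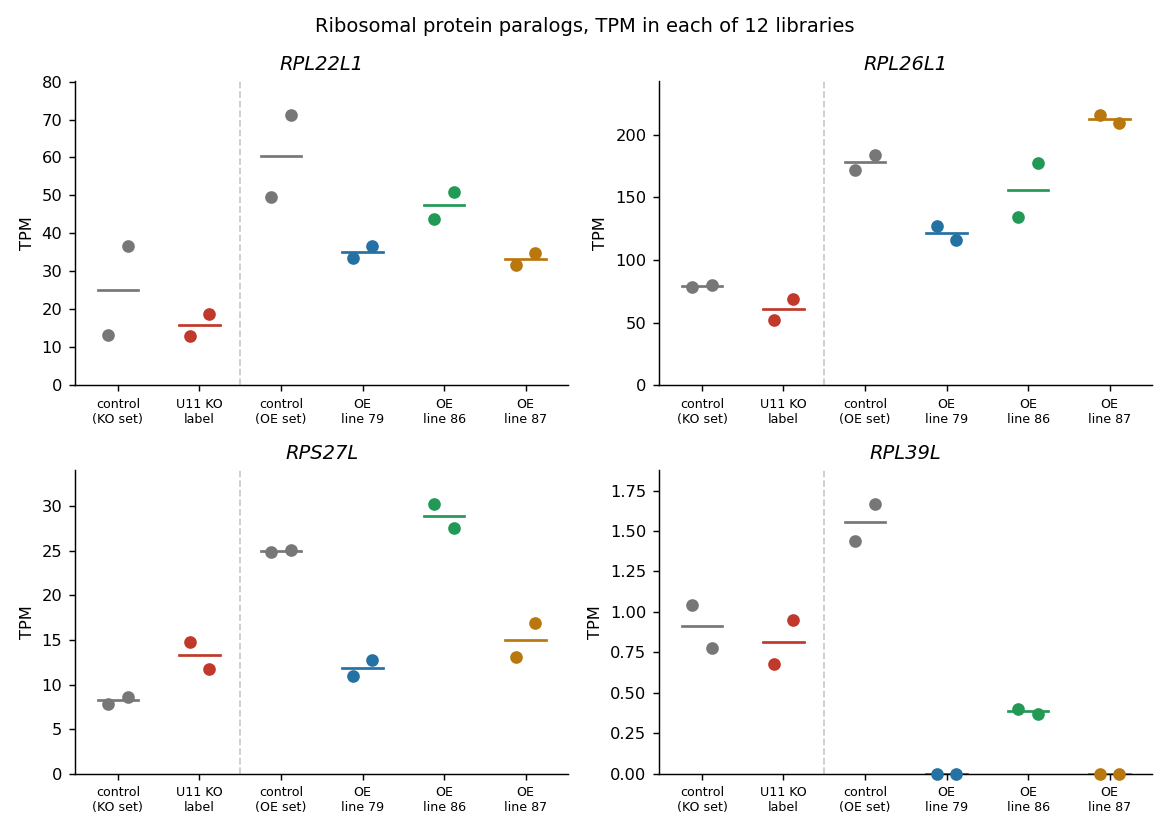
TPM (y axis, linear from 0) of the 4 paralogs in each library (points) and the group mean (bars), with a dashed line between the knockout set and the overexpression set. RPL22L1 differed between its first-set controls (13.1 and 36.75 TPM), and RPL39L was listed at 0 in lines 79 and 87.

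RPL22L1 was lower in every overexpression line than in the control of its batch, but the 2 controls of the knockout set disagreed about it. It was 13.1 TPM in T1 and 36.75 TPM in T2, against 12.81 TPM in U1 and 18.7 TPM in U2. The libraries labelled knockout thus lay on either side of T1 and below T2, and the groups overlapped. In a bulk library a lower level cannot be told apart from fewer cells that express the gene. In the second set RPL22L1 was 49.6 and 71.24 TPM in the controls, 33.55 and 36.59 TPM in line 79, 43.89 and 50.87 TPM in line 86, and 31.64 and 34.72 TPM in line 87. Lines 79 and 87 lay below both controls, and line 86 overlapped them through 86-3.

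RPL26L1 was lower in the libraries labelled knockout and went in different directions in the overexpression lines. It was 78.51 and 80.17 TPM in T1 and T2 and 52.2 and 68.68 TPM in U1 and U2. In the second set it was 172.25 and 184.34 TPM in the controls, 127.29 and 115.64 TPM in line 79, 134.07 and 177.22 TPM in line 86, and 216.12 and 209.24 TPM in line 87. Both libraries of line 87 were above both controls and both of line 79 were below. An entry on the opposite strand, CTC-308K20.1, overlaps RPL26L1 by 664 bases and was listed at 0.48 to 5.18 TPM.

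RPS27L was the paralog that was higher in the libraries labelled knockout. It was 7.79 and 8.65 TPM in T1 and T2 and 14.81 and 11.73 TPM in U1 and U2, without overlap. In the second set the controls agreed closely at 24.87 and 25.12 TPM. Line 79 was at 11 and 12.79 TPM, line 87 at 13.07 and 16.87 TPM, and line 86 at 30.32 and 27.57 TPM. Lines 79 and 87 thus stood below the controls and line 86 above them.

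RPL39L was near the lower end of what the files list. It was 1.04 and 0.78 TPM in T1 and T2 and 0.68 and 0.95 TPM in U1 and U2, with overlap. In the second set it was 1.44 and 1.67 TPM in the controls and 0.40 and 0.37 TPM in line 86, and it was listed at 0 in all 4 libraries of lines 79 and 87. The coverage behind the values above 0 was at most 7.64 aligned bases per position. The files hold no counts, so a listed 0 does not show that the transcript was absent, and no ratio is given for lines 79 and 87.

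The 4 further paralogs of this kind were spread more widely in level. RPL36AL was 209.5 to 217.6 TPM in the first set and 363.6 to 455.3 TPM in the second. RPL7L1 was 36.75 to 45.62 TPM and 73.37 to 115.7 TPM. RPL3L, a muscle paralog, did not exceed 0.16 TPM, and RPL10L, known from testis, was listed at 0 in 10 of 12 libraries. Neither of the genes that passed the filter on low values (RPL36AL and RPL7L1) was called in any comparison. Of all genes fitted, 11.8% were called in the knockout comparison, 1.93% in the overexpression comparison and 13.4% over the lines.

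As a share of paralog plus parent TPM, RPL22L1 made up 4.22% to 15.6% (median 7.11%) and RPL26L1 4.66% to 10.8% (median 8.41%) across 12 libraries. RPS27L made up 0.449% to 1.39% and RPL39L at most 0.0816%. The highest RPL22L1 share, 15.6%, was that of T2, and T1 had 7.33%. Both libraries of line 87 had a low RPL22L1 share (4.22% and 4.23%), while line 79 had 6.70% and 4.36%. For RPL26L1 the libraries labelled knockout had 5.31% and 10.8% and enclosed the controls (7.78% and 9.91%). RPL26 itself was 930.8 TPM in U1 and 568.8 TPM in U2.

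**Figure D2:**
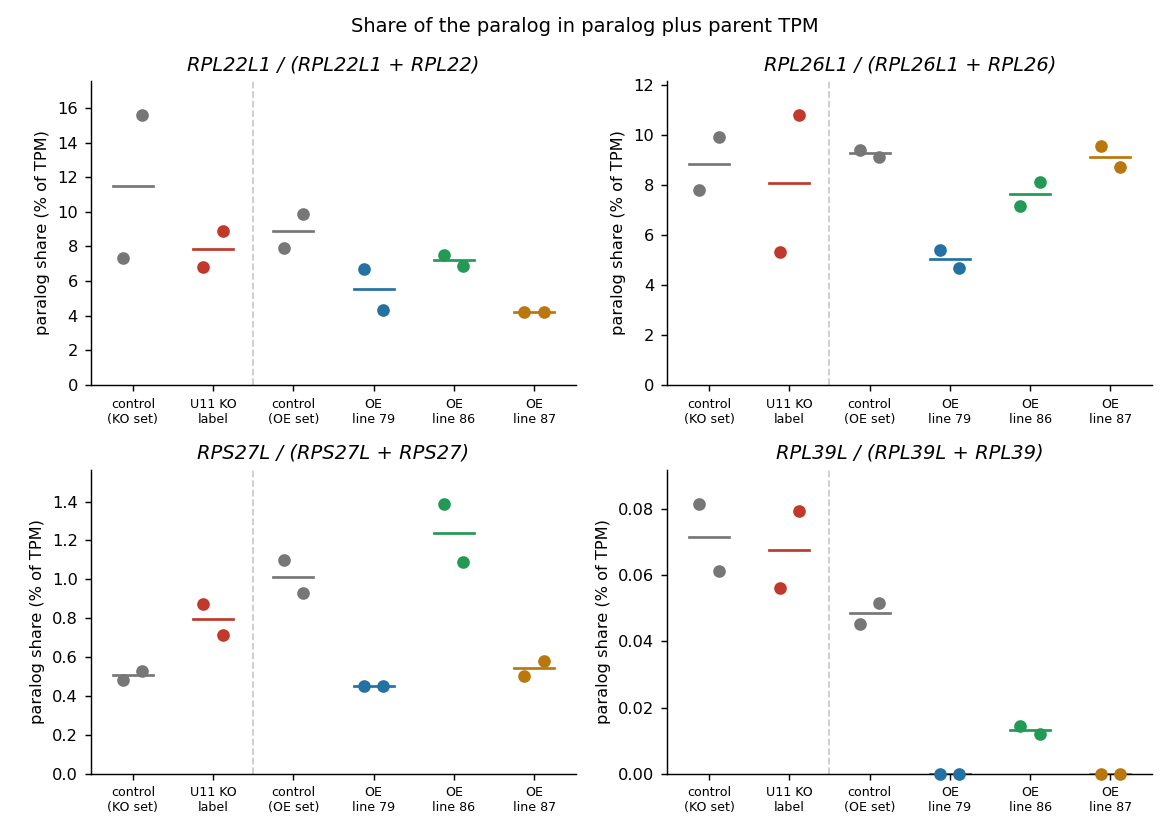
Share of the paralog in the sum of paralog and parent TPM (percent, y axis from 0) in each library (points) and the group mean (bars). The RPL22L1 share was 15.6% in T2, and the RPS27L share was 1.39% in library 86-1 against 0.449% in 79-1.

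The first comparison set the libraries labelled U11 knockout against T1 and T2 (2 and 2). On the log2(TPM + 1) scale the fold change was 0.62 (SE 0.15) for RPS27L, -0.40 (SE 0.15) for RPL26L1 and -0.48 (SE 0.49) for RPL22L1. RPL39L was not fitted because a single library reached 1 TPM. The RPL26L1 value was -0.21 without U1 and -0.59 without U2. The mean TPM ratio was 1.61 for RPS27L, 0.762 for RPL26L1, 0.632 for RPL22L1 and 0.898 for RPL39L. Of the 4 paralogs, 2 (RPS27L and RPL26L1) had groups that did not overlap. Of the 14356 genes fitted, 60.2% did not overlap, 39.9% being higher and 20.4% lower. The median log2 fold change of all fitted genes was 0.108, and after median ratio scaling, which brought it to 0.004, the values were 0.51 for RPS27L, -0.52 for RPL26L1 and -0.60 for RPL22L1. Set against all 4 controls of both sets, RPS27L turned to -0.13, since the second-set controls have a higher TPM.

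The RPL22L1 value in that comparison rested on which control was used. It was 0.23 without T2 and -1.19 without T1. The log2 difference between T1 and T2 was 1.42, and 31 of 9399 genes over 5 TPM (0.33%) were as far apart in these controls. The files also give coverage, the mean aligned bases per position, which was divided here by the aligned gigabases of the library. On that scale RPL22L1 was 6.02 in T1, 9.45 in T2, 4.16 in U1 and 5.05 in U2. T2 was then 1.57 times T1 instead of 2.80 times, and both controls were above both libraries labelled knockout. This was also so for the parents RPL22, RPS27 and RPL39. Their ratios of mean coverage were 0.853, 0.962 and 0.891, against 0.595 for RPL22L1. The share of all genes lower on this scale is not reported here. The ratio of coverage to FPKM, given relative to its upper limit in each library, was 0.609 in T1, 0.487 in U1, 0.352 in T2 and 0.377 in U2, and 0.349 to 0.412 in the second set. For RPL22 the same ratio was 0.083 to 0.123 over the 12 libraries. The part of these ratios in the control difference and in the RPL22L1 share of TPM was not tested.

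**Figure D3:**
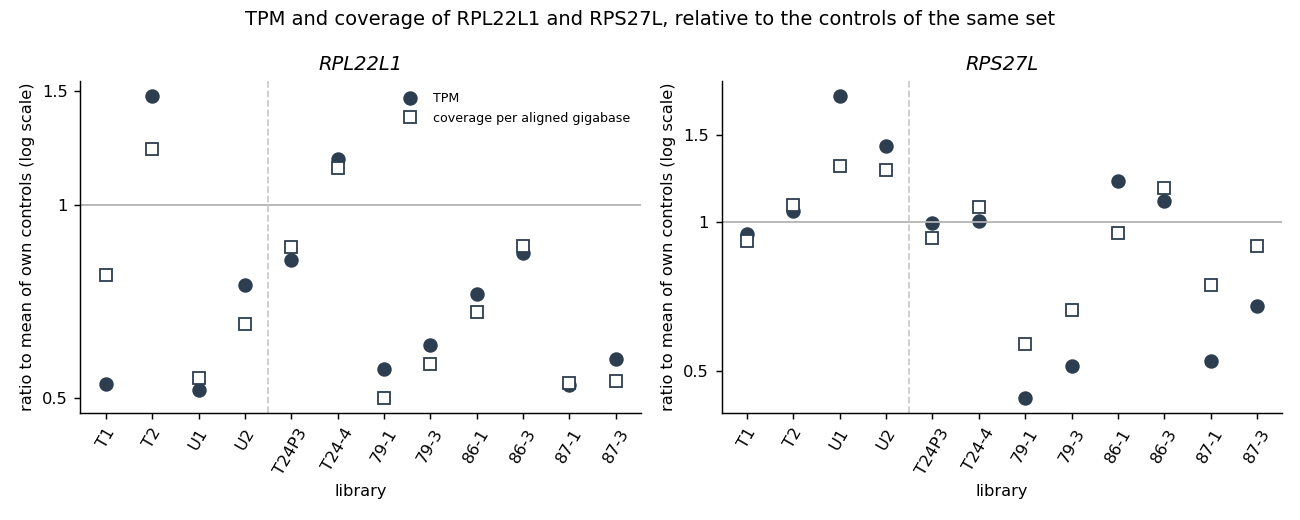
RPL22L1 and RPS27L in each library relative to the mean of the controls of the same set (y axis, log scale), from TPM (filled circles) and from coverage per aligned gigabase (open squares). For RPL22L1 the squares of both controls, T1 and T2, lie above those of U1 and U2, whereas the circles of T1 and U1 are almost level.

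RPS27L was higher in U1 and U2 on both scales, by less on the coverage scale. Coverage per aligned gigabase was 2.68 in T1, 3.17 in T2, 3.80 in U1 and 3.74 in U2, a ratio of means of 1.29. RPL26L1 kept a ratio of 0.689 on this scale. The 4 parents were also lower on it, at 0.853 (RPL22), 0.875 (RPL26), 0.962 (RPS27) and 0.891 (RPL39). A lower coverage ratio is therefore not particular to the paralogs.

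None of the 4 parents was called in this comparison. A gene was called at an unadjusted limma P under 0.05 with a fold change of at least 1.5. The log2 fold change was 0.01 (SE 0.12, adjusted P = 0.961) for RPL22, -0.18 (SE 0.26, adjusted P = 0.686) for RPL26, 0.04 (SE 0.06, adjusted P = 0.722) for RPS27 and -0.07 (SE 0.06, adjusted P = 0.468) for RPL39. With median ratio scaling RPL22 (-0.11) and RPS27 (-0.09) changed sign.

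Of the 79 cytosolic ribosomal protein genes, 2 fell and none rose, whereas 11.8% of all fitted genes were called (8.61% higher, 3.15% lower, and 6.85% with the adjusted P). RPS23 fell by 0.92 (SE 0.34) and RPS2 by 0.88 (SE 0.10) on the log2 scale, and RPS2 alone passed the Benjamini-Hochberg adjustment (adjusted P = 0.021, against 0.154 for RPS23). The list's median was -0.165, and 13 of 79 were higher, against 9147 of all 14356 genes fitted. The count depended on scaling, with 9 called after median ratio scaling and 7 on FPKM. The share of all genes called on these scales is not reported here.

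Among 26 ribosome biogenesis genes 3 fell, namely NOLC1 (-0.88, SE 0.15), RRS1 (-0.80, SE 0.10) and BOP1 (-0.60, SE 0.09), all factors of nucleolar ribosome assembly, with adjusted P of 0.0386, 0.0225 and 0.0326. The list's median was -0.163, and of all fitted genes 11.8% were called (3.15% lower). Of 18 translation factors 4 fell by limma. These were the elongation factor subunits EEF1D (-0.86, adjusted P = 0.123) and EEF1G (-0.65, adjusted P = 0.0243). The others were the translation inhibitor EIF4EBP1 (-0.65, adjusted P = 0.0297) and the poly(A)-binding protein PABPC1 (-0.63, adjusted P = 0.135). EEF1D was 278 and 495 TPM in the controls. PABPC1 was named after the values were seen.

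**Figure D4:**
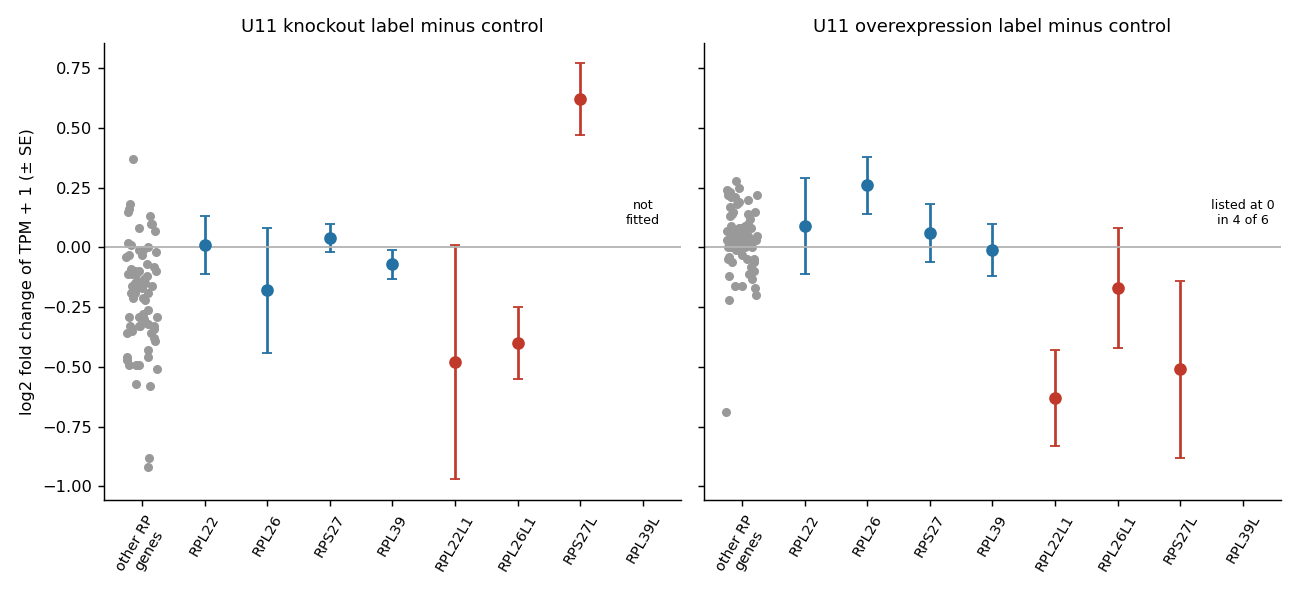
Log2 fold change of TPM + 1 (y axis) in the knockout comparison (left) and the overexpression comparison (right) for the other cytosolic ribosomal protein genes (grey), the 4 parents (blue) and the paralogs (red), with SE as bars. RPS27L lay at 0.62 on the left and at -0.51 on the right. RPL39L was not fitted on the left and is not drawn on the right, where it was listed at 0 in 4 of 6 libraries.

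The second comparison set the 6 overexpression libraries against T24P3 and T24-4. The fold change was -0.63 (SE 0.20) for RPL22L1, -0.17 (SE 0.25) for RPL26L1 and -0.51 (SE 0.37) for RPS27L on the log2(TPM + 1) scale. The mean TPM ratio was 0.638 for RPL22L1, 0.916 for RPL26L1 and 0.744 for RPS27L. Leaving out a library gave -0.26 to -0.08 for RPL26L1, with -0.26 without 87-1 and -0.08 without 79-3. The fitted value for RPL39L, -1.20, rests on 4 libraries listed at 0, so its size is set by the pseudocount (-3.29 with 0.1 in place of 1) and it is no estimate of a fold. RPL39L was fitted only because both controls reached 1 TPM. Groups did not overlap for 1 of the 4 paralogs, RPL39L, and for 9.87% of the 15768 genes fitted (4.62% higher, 5.24% lower).

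The size of the RPL22L1 difference moved with the control. It was -0.89 without T24P3 and -0.38 without T24-4, and against the control of the same batch its mean over the 3 lines was -0.45 in R17018 and -0.81 in R18019. It was lower in 3 of 3 lines in both batches. On the coverage scale the ratio of means was 0.611.

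The parents were not called in this comparison either. The log2 fold change was 0.09 (SE 0.20, adjusted P = 0.972) for RPL22, 0.26 (SE 0.12, adjusted P = 0.847) for RPL26, 0.06 (SE 0.12, adjusted P = 0.972) for RPS27 and -0.01 (SE 0.11, adjusted P = 0.995) for RPL39. RPL26 was higher in 3 of 3 lines in both batches, with means of 0.26 and 0.25. Of the 79 cytosolic ribosomal protein genes 0 were called by limma, 1 had an unadjusted P under 0.05, and the list's median was 0.046. The background was 1.93% of genes called (0.767% higher, 1.16% lower, and 0.165% with the adjusted P) around a median of -0.017. None of the 26 ribosome biogenesis genes and 18 translation factors was called by limma, with 0 and 1 at an unadjusted P under 0.05. Of all 15768 genes fitted, 946 were under this threshold.

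The pooled values hide differences between the line labels, most plainly for RPS27L. Against the control of its batch, RPS27L was 1.22 and 1.10 times as high in line 86, 0.442 and 0.509 times in line 79, and 0.526 and 0.672 times in line 87. RPL26L1 was 1.25 and 1.14 times as high in line 87 and 0.739 and 0.627 times in line 79, with line 86 between them at 0.778 and 0.961. RPL22L1 was below 1 in every line, at 0.676 and 0.514 in line 79, 0.885 and 0.714 in line 86 and 0.638 and 0.487 in line 87. The 2 batches gave the same order of lines for each of these 3 paralogs.

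**Figure D5:**
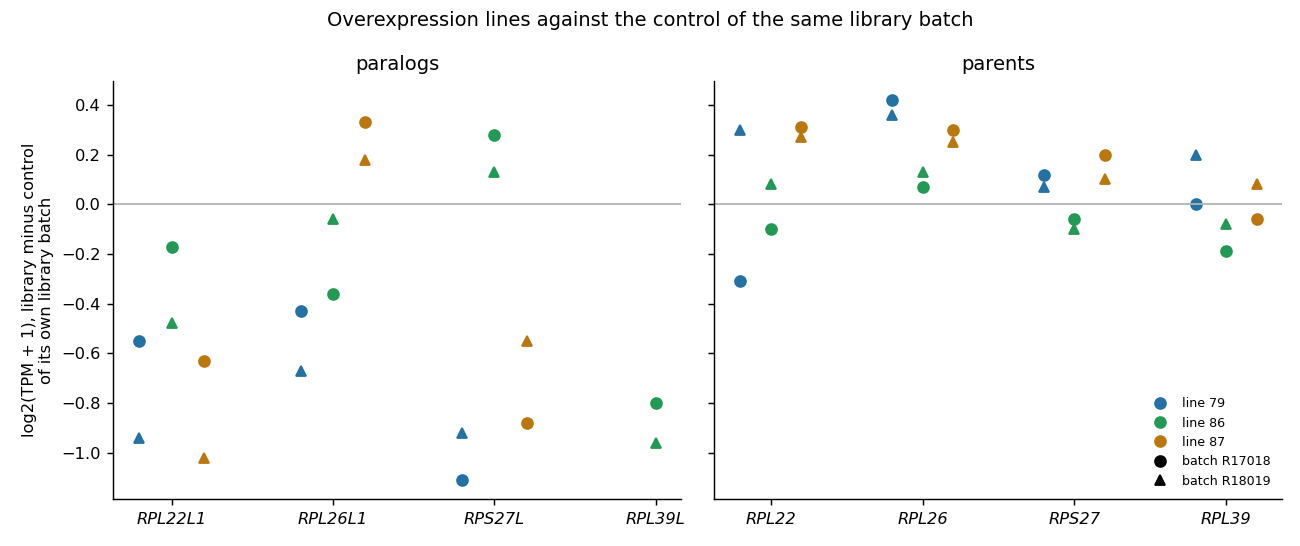
Difference in log2(TPM + 1) between each overexpression library and the control of its own library batch (y axis) for paralogs (left) and parents (right), with colours for lines 79, 86 and 87 and symbols for the batches. Libraries listed at 0 for RPL39L are left out. The paralogs drawn reach from 0.33 (RPL26L1, 87-1) down to -1.11 (RPS27L, 79-1), and the parents stay between -0.31 and 0.42.

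The range of the 3 line means was 1.22 for RPS27L, 0.80 for RPL26L1 and 0.50 for RPL22L1 on the log2 scale, and its median over 15457 genes was 0.301. For the parents it was 0.30 for RPL22, 0.29 for RPL26, 0.23 for RPS27 and 0.24 for RPL39. None of these parents passed the limma F test over the lines (adjusted P = 0.64, 0.164, 0.378 and 0.323). With the library batch as a block 3 of the 4 passed, namely RPL26 (adjusted P = 0.0477), RPS27 (adjusted P = 0.0411) and RPL39 (adjusted P = 0.0451). The share of all fitted genes that passed with this block is not reported here, so the 3 have no background beside them.

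The line order of RPS27L did not follow the U11 TPM. The labels describe polyA RNA, and whether U11 TPM follows the U11 level of each line was not tested. Line 87, with the higher U11 TPM, and line 79, whose U11 TPM was not above both controls, were both low in RPS27L. Line 86, at 3.98 and 3.72 TPM of U11, was high. On the coverage scale the distance was smaller. The ratio to the mean of both controls was 0.616 in line 79, 0.819 in line 87 and 1.06 in line 86, where it overlapped the controls, whereas on the TPM scale it was 0.476, 0.599 and 1.16. The ratio of coverage to FPKM for RPS27L ran from 0.306 to 0.542, and its part in the line differences was not tested.

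The RPS27L span overlaps LACTB, a mitochondrial serine protease gene on the opposite strand, by 16190 bases. The strand setting of the libraries is not given in the sources used here, so reads from that stretch cannot be told apart. LACTB followed a like order, at 0.589 and 0.581 times its batch control in line 79, 1.12 and 1.09 in line 86, and 0.881 and 0.982 in line 87, and it was 16.93 and 19.25 TPM in T1 and T2 against 24.46 and 24.02 TPM in U1 and U2. The canonical RPS27L transcript starts and ends at chr15:63148249-63157477, beyond the stretch shared with LACTB. The part of LACTB reads in the RPS27L level was not tested.

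Over the lines, 15 of 79 cytosolic ribosomal protein genes and 13.4% of the 15457 genes fitted passed the F test at an adjusted P under 0.05. Among the 15, line 79 had the highest mean in 13 and line 86 the lowest in 12. RPL35 had the widest range among them, with a mean of 3512 TPM in line 79, 1675 TPM in line 86 and 2970 TPM in line 87 (n = 2 each, adjusted P = 0.0032), and RPL37 and RPS2 came next with ranges of 1.00 and 0.84. The count was 28 with the batch block and 2 without the filter on low values. The share of all genes that passed is not reported for these settings, so the counts do not show a shift particular to ribosomal protein genes. None of 26 ribosome biogenesis genes and 3 of 18 translation factors passed (EIF3M, EEF1A1 and TPT1).

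Across the 12 libraries, with the mean of each batch removed, each paralog was compared with genes at 5 TPM or more in every library (8843 genes, or 8844 for RPL39L). The genes most like RPS27L were THSD4 (Pearson r = 0.986), ADAL (0.980) and SPRY2 (0.977), and LACTB reached 0.878. Those most like RPL26L1 were MRPS33 (0.935), SFN (0.928) and UBTD1 (0.928). RPL22L1 was closest to RAPGEF6 (0.950), CEP57 (0.879) and TMEM123 (0.869), and RPL39L to LRFN4 (0.932), TBCC (0.922) and AGAP3 (0.917). RPL39L was listed at 0 in 4 of the 12 libraries and reached at most 1.67 TPM, so its r values depend on the pseudocount. The libraries share lines, controls and batches, so all these r values are descriptions. SPRY2, which restrains receptor kinase signalling, was 41.34 and 41.57 TPM in line 86, 29.63 and 31.59 TPM in line 87 and 28.59 and 28.18 TPM in line 79. The controls were at 41.23 and 40.13 TPM, so line 86 was level with them, whereas RPS27L was above them there.

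The paralogs did not track their own parents. The same r was -0.029 for RPL22L1 with RPL22, -0.257 for RPL26L1 with RPL26, -0.707 for RPS27L with RPS27 and -0.259 for RPL39L with RPL39. Parent values may hold reads of processed pseudogenes: entries named after RPL39 summed to 125.51 to 618.17 TPM and those named after RPL26 to 53.14 to 111.89 TPM, while those of RPL22 and RPS27 stayed under 1 TPM.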

How the data were processed

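RNA of T24 cells was sequenced in 12 libraries (2 × 150 bases). The labels describe polyA RNA and the methods ribosomal RNA depletion. The authors cleaned the reads with fastp, aligned them to hg38 with Hisat2 and ran Stringtie on each library. For each gene the authors deposited coverage (mean aligned bases per position), FPKM and TPM. The authors used DESeq2, which needs counts, and counts were not analysed here.

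Groups came from the labels, and line labels and batches were inferred from the sample titles. The limma package (3.58.1, R 4.3.3, eBayes with trend) was fitted to log2(TPM + 1) of genes at 1 TPM or more in at least 2 of the libraries compared. A call needed a fold change of 1.5 or more with P under 0.05 before adjustment. The 3 line labels were compared by a limma F test at an adjusted P (Benjamini-Hochberg over all genes) under 0.05. The test was checked on simulated data. The upper limit of coverage over FPKM gave the aligned gigabases of each library. Without counts no counting error could be given. No pair of libraries held identical values.

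In the overexpression set, libraries with the same title prefix deviated together from their group means (correlations of 0.142 to 0.214 over 8844 genes), so the inferred batch pairs them. The main fits did not use this pairing, and fits with the library batch as a block are given as an alternative.

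The paralogs and gene lists were chosen with earlier results of these data known. Genes named from a list are up to 3 called genes with the largest change, and genes most like a paralog are the 3 with the highest Pearson r. Alternatives were a pseudocount of 0.1, FPKM, median ratio scaling, no filter, adjusted P, all 4 controls, a replicate block, line means and leaving out each library. Coverage per aligned gigabase was chosen after seeing the data. Starts came from RefSeq (GRCh38.p14) and coding sequences from GENCODE 44, with shared stretches of 31 bases counted in Python 3.11.15. Some listed genes and markers are not reported here.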

Additional observations from a re-analysis of the deposited data

Results flagged for a closer look

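In 2 paralogs the overexpression lines moved to opposite sides of both controls, in each case in both libraries of the line, and the difference was not tested. RPS27L was above both controls in line 86 and below both in line 79, and the log2 changes of the lines differed by 1.22. It was also above in line 86 and below in line 87, a difference of 0.92. RPL26L1 was above both controls in line 87 and below both in line 79, a difference of 0.80. On the coverage scale 1 library of line 86 lay within the controls for RPS27L. No library stood apart within the 8 gene groups of 6 overexpression libraries that were looked at.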

How the results depend on the processing

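The cause of each shift below was not tested, except where fewer libraries entered. The share of all genes called is not reported for the alternatives, so a shifted count cannot be told from a shift over all genes. In the knockout comparison 2 cytosolic ribosomal protein genes were called, against 7 with FPKM, 9 with median ratio scaling, 1 without the filter, 1 at an adjusted P under 0.05, 7 with coverage per aligned gigabase and 2 to 6 when a library was left out (6 without T1, 4 without T2 or U1). In the overexpression comparison 0 became 0 to 1 (1 without T24-4 and without 87-3). Over the lines 15 became 2 without the filter, 28 with the replicate block by library batch, 7 with coverage and 3 to 5 when a library was left out. RPL26L1 moved from -0.40 to -0.98 with all 4 controls in the knockout comparison, and RPS27L from 0.62 to -0.13, or to 0.36 with coverage. Leaving out a library there gave -1.19 to 0.23 for RPL22L1 and -0.59 to -0.21 for RPL26L1. In the overexpression comparison leaving out a library gave -0.89 to -0.38 for RPL22L1, -0.66 to -0.39 for RPS27L and -1.26 to -1.16 for RPL39L, which had no value without either control because it then failed the filter. RPS27L was -0.29 with coverage, and RPL39L -2.08 with coverage and -3.29 with a pseudocount of 0.1. Among the parents, small values changed sign. In the knockout comparison RPL22 went from 0.01 to -0.09 with FPKM, -0.11 with median ratio scaling, -0.86 with all 4 controls, -0.23 with coverage and -0.12 to 0.14 when a library was left out. RPS27 went from 0.04 to -0.07, -0.09, -0.27 and -0.06 under the same 4 settings, and RPL26 to -0.53 to 0.18 when a library was left out. In the overexpression comparison leaving out a library gave -0.07 to 0.19 for RPS27 and -0.05 to 0.03 for RPL39, which was 0.00 with median ratio scaling and 0.03 with coverage.

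The replicate numbers of the knockout comparison only name the libraries (correlation of T1 and U1 deviations -0.061), and the replicate block left 2 cytosolic ribosomal protein genes called. The block by library batch brought RPL26 (adjusted P = 0.0477), RPS27 (0.0411) and RPL39 (0.0451) past the threshold over the lines and changed no other call of the parents. With 2 libraries a group and no counts, small differences of low genes such as RPL39L were not resolvable.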
